A study of Homo sapiens with 8 samples.

Results

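NOS3 and KCNH2 stand next to each other on chromosome 7, and both held capped transcription start sites that the depositors listed for proliferating and not for senescent cells. The members are the listed sites whose midpoint lay in the annotated span of either gene or within 1 kb upstream of it. This gave 8 of the 1249 sites deposited, 4 in NOS3 and 4 in KCNH2. All 8 belonged to the 400 sites called proliferating-only here, and none (0) to the 849 called senescent-only. The pair was chosen by measured values of the same data, the number of listed sites in each gene and their folds. Counts, folds and reads of the members are therefore given as a description, without a test.

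The cells were IMR90 human lung fibroblasts grown at 3% oxygen. They were either proliferating or kept until serial passage had exhausted their growth (replicative senescence). PRO-cap, a nuclear run-on assay that selects RNA with a capped 5′ end and so maps where transcription starts, was run on 3 libraries of proliferating cells (population doubling 23 for 1 library and 26 for 2) and on 3 of senescent cells (population doubling 76 for 1 and 67 for 2). PRO-seq, which maps engaged polymerases, was run once per state (population doublings 20 and 76), and its values were not analysed here. The site lists give 1 value per site and none per library, so nothing below has a spread between cultures, and the levels of fibroblast marker genes could not be checked from them.

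NOS3 encodes the endothelial nitric oxide synthase, which turns arginine into nitric oxide with the help of calmodulin and tetrahydrobiopterin; its amino-terminal part is the oxygenase domain and its carboxy-terminal part the reductase domain that feeds it electrons. Nitric oxide activates soluble guanylate cyclase in neighbouring cells and relaxes vessels. KCNH2 encodes the pore-forming subunit of the hERG potassium channel, which carries the rapid delayed rectifier current that ends the cardiac action potential. The genes are best known from endothelium and from heart muscle, and start sites inside a gene can mark alternative promoters, enhancers or other initiation within the transcribed body.

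The genes lie head to head. In hg19 coordinates KCNH2 (ENSG00000055118.17_8) spans 150642049 to 150675409 on the minus strand and NOS3 (ENSG00000164867.11_9) spans 150688105 to 150711676 on the plus strand, so that 12.7 kb separate their 5′ ends, and no coding gene (0) lies between them. The sites were not near that shared 5′ region. The KCNH2 sites formed a stretch of 1189 bases, 15.2 to 16.3 kb into the gene. The NOS3 sites lay 17.8 to 19.6 kb into that gene, within 1947 bases, and 45.6 kb separated the stretches.

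**Figure D1:**
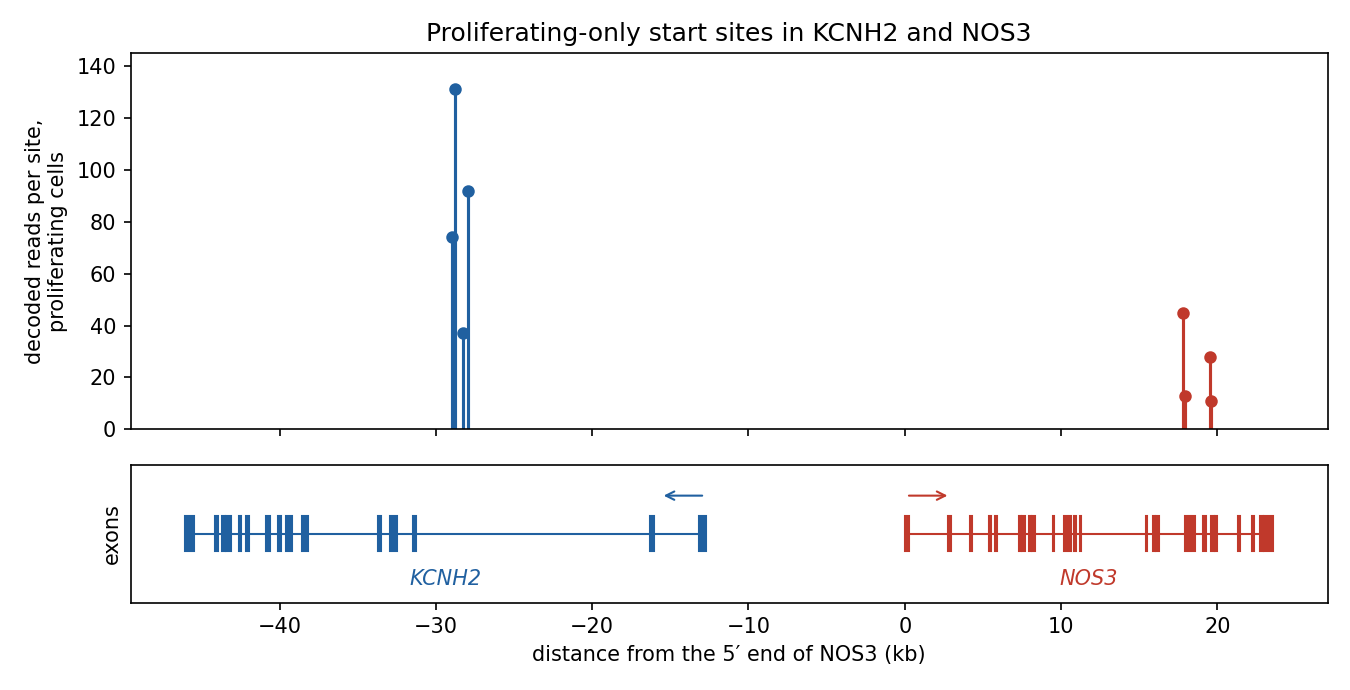
Decoded reads of proliferating cells at each of the 8 sites (stems, upper panel) above the exons of the canonical transcripts (boxes, lower panel), against distance from the 5′ end of NOS3 in kb; arrows show the direction of each gene. The KCNH2 sites stand together in a long intron, and the NOS3 sites stand as pairs late in the gene.

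The sequences of 5 stretches are printed because they show what kind of DNA the sites lie in: the sites with the highest and the lowest fold of KCNH2, both sites of the first NOS3 pair, and the stretch covered by the overlapping second pair. All are the hg19 plus strand, which is the sense strand of NOS3 and the antisense strand of KCNH2. The deposited strand column holds + for every site, so the direction in which each site was transcribed is not known. In the KCNH2 sites and NOS3 site 1 capitals mark matches to the motifs described below, and KCNH2 site 4 has none. The motif search covered 200 bases per site. The RUNX match of KCNH2 site 2 and the CCAAT match of NOS3 site 3 therefore lie outside the printed bases. In the other NOS3 stretches capitals mark coding bases of the canonical transcript NOS3-201.
KCNH2 site 2, chr7:150659227-150659376: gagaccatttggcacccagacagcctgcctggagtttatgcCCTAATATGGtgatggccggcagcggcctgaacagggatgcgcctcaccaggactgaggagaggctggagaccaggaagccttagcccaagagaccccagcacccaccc
KCNH2 site 4, chr7:150660094-150660243: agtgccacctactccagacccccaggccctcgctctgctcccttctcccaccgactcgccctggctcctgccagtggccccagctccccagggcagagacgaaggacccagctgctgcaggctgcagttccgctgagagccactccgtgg
NOS3 site 1, chr7:150705835-150705984: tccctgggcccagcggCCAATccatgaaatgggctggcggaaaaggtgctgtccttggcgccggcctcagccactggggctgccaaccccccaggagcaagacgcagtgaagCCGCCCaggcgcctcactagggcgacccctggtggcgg
NOS3 site 2, chr7:150705993-150706142: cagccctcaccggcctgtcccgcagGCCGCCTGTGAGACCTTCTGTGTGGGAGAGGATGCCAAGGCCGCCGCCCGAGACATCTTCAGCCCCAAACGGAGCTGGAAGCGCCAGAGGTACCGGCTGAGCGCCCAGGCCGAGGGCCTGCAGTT
NOS3 sites 3 and 4, chr7:150707591-150707781: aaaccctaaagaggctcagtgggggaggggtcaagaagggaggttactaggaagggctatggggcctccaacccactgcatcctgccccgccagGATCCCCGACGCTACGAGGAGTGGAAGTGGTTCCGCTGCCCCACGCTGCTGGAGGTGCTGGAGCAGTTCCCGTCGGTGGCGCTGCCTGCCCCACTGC

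The deposited value of a site is the authors' fold, the level in proliferating over that in senescent cells. The folds could be turned back into reads. In each state a read was worth a constant amount, 39.4 in proliferating and 32.8 in senescent cells, to which the authors' values add 1 (the pseudocount) before the ratio is taken. Exactly 1 pair of read numbers matched the fold of each of the 400 proliferating-only sites. The senescent data were 1.2 times as deep if the scaling brought the states to an equal total. Reads are given with exact 95% Poisson intervals, which cover counting error only. For a count of 0 a fixed limit of 3 reads replaces that interval, whose upper end would lie above 3. The ratio of depth-scaled reads is then given as a lower bound, the lower limit of the proliferating reads over 3 senescent reads. With the exact interval these bounds would be lower.

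The 4 KCNH2 sites lay in intron 2 of the canonical transcript KCNH2-201, which has 15 exons. KCNH2 site 1 (150659055 to 150659204) had 74 reads in proliferating cells (58.1 to 92.9) and 0 in senescent cells, a deposited fold of 2914. KCNH2 site 2 had 131 reads (110 to 155) and 0, a fold of 5158, the ninth highest of the list (rank 9). KCNH2 site 3 (150659746 to 150659895) had 37 reads (26.1 to 51.0) and 0, a fold of 1458.
These first 3 sites were thus seen in proliferating cells alone at this depth. KCNH2 site 4 had 92 reads (74.2 to 113) in proliferating and 5 (1.62 to 11.7) in senescent cells, with a fold of 21.9. It ranked 350 of 400 by fold and 41 of 400 by reads of proliferating cells. The site with the lowest fold in KCNH2 therefore had the second most reads of the gene, and it also held reads of senescent cells. Whether these 5 reads mark a start in senescent cells was not tested.

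The NOS3 sites formed pairs. The midpoint of NOS3 site 1 lay in intron 17 and that of NOS3 site 2 in exon 18 of NOS3-201, a transcript of 27 exons, and 158 bases separated these midpoints. NOS3 site 1 had 45 reads (32.8 to 60.2) in proliferating and 3 (0.619 to 8.77) in senescent cells, a fold of 17.8 and rank 359. NOS3 site 2 had 13 reads (6.92 to 22.2) and 0, a fold of 513.
The NOS3 site with the lowest fold had the most proliferating reads of the gene. NOS3 sites 3 and 4 shared 109 of their 150 bases, and reached from intron 21 into exon 22. NOS3 site 3 had 28 reads (18.6 to 40.5) and 0, a fold of 1103. NOS3 site 4 (150707632 to 150707781) had 11 reads (5.49 to 19.7) and 0, a fold of 434. Whether these overlapping sites hold some of the same reads cannot be told from the lists. Of the 400 proliferating-only sites, 19% (15.5 to 23.1, Wilson) overlapped another.

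**Figure D2:**
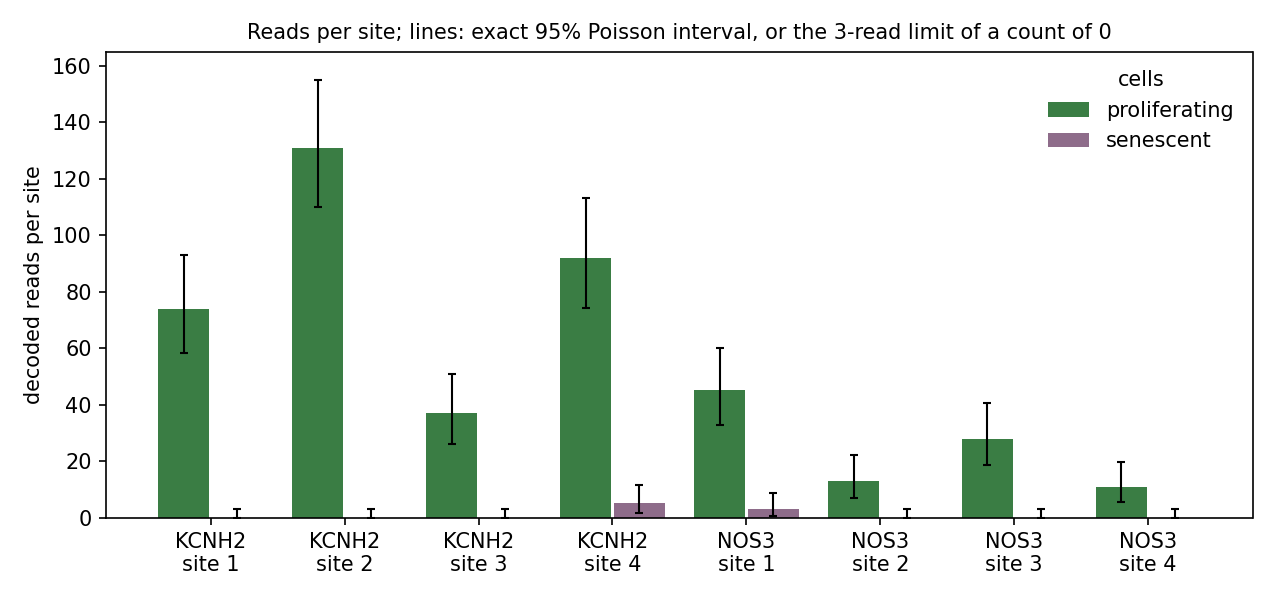
Decoded reads at the 8 sites in proliferating (green) and senescent cells (purple), with exact 95% Poisson intervals, or the limit of 3 reads where the count is 0. KCNH2 site 2 is highest at 131 reads, and senescent reads are present at KCNH2 site 4 and NOS3 site 1 alone.

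KCNH2 carried more reads than NOS3. Its 4 sites summed to 334 reads and had a median of 83, and the NOS3 sites summed to 97 with a median of 20.5 (a sum of 86 without the overlapping NOS3 site 4). The intervals of KCNH2 sites 2 and 4 lay above those of every NOS3 site. The interval of KCNH2 site 1 overlapped that of NOS3 site 1, and the interval of KCNH2 site 3 overlapped those of NOS3 sites 1 and 3. All sites are 150 bases wide, so reads per site are compared at equal length. Together the 8 sites held 431 of the 16906 decoded reads of the list (2.55%), next to 2% of its sites. Their median was 41 reads, against 24 over all 400 sites.

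No senescent read fell on 6 of the 8 sites. Over all proliferating-only sites this share was 73% (68.4 to 77.1), which is close to the members' count. The deposited fold of such a site follows from its own reads, since the denominator is the pseudocount. The lowest fold in the list without a senescent read was 40.4, on 1 decoded read, and the highest fold with a senescent read was 209. The lowest fold with senescent reads was 10.0 (109 against 13 reads). A site with senescent reads was thus listed only with many more proliferating reads. That the site of lowest fold in a gene had many reads therefore follows in part from the listing. The ratio of depth-scaled reads was 22.1 (exact 95% interval 9.13 to 69.6) at KCNH2 site 4 and 18.0 (5.78 to 90.5) at NOS3 site 1. Proliferating cells were at least 43.8-fold higher at KCNH2 site 2, at least 23.2-fold at KCNH2 site 1 and at least 10.4-fold at KCNH2 site 3. In NOS3 the bounds were at least 7.44-fold at site 3, 2.77-fold at site 2 and 2.20-fold at site 4. These 6 sites have no upper limit, and each of their bounds lay within the interval of NOS3 site 1 or below it, so the reads do not resolve the order that the folds give.

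**Figure D3:**
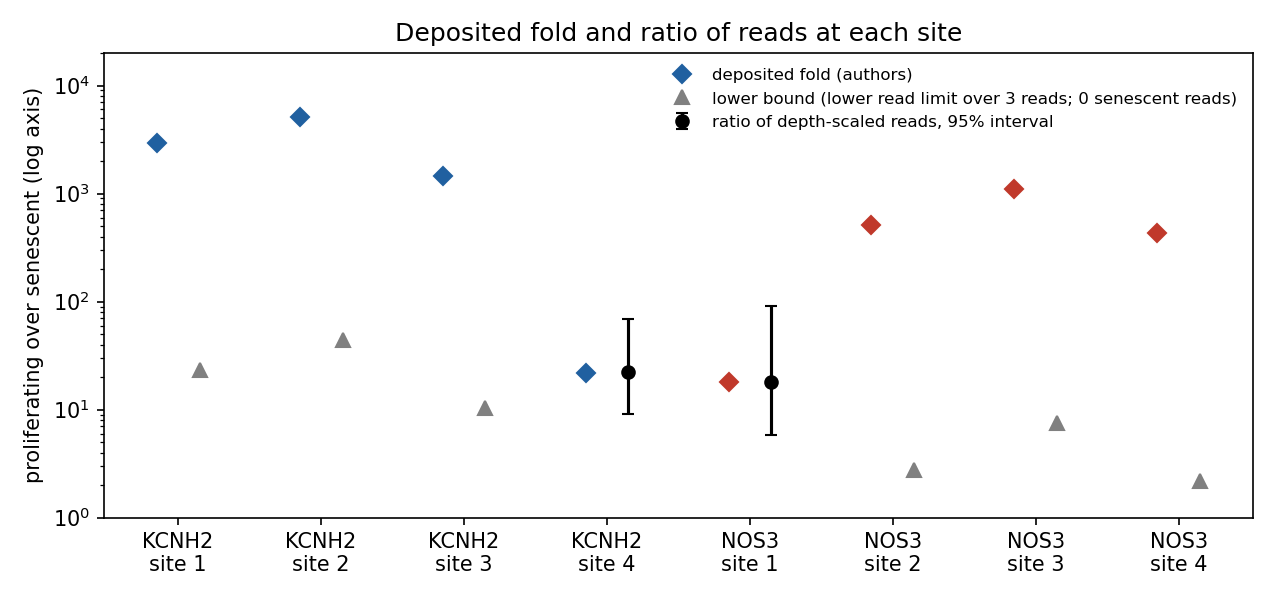
The authors' deposited fold (diamonds, blue for KCNH2 and red for NOS3) and the ratio of depth-scaled reads (circles with exact 95% intervals, or triangles for lower bounds at 0 senescent reads) at each site, on a log axis. Folds run from 17.8 to 5158, and the lower bounds run from 2.20 to 43.8 with no upper limit.

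**Figure D4:**
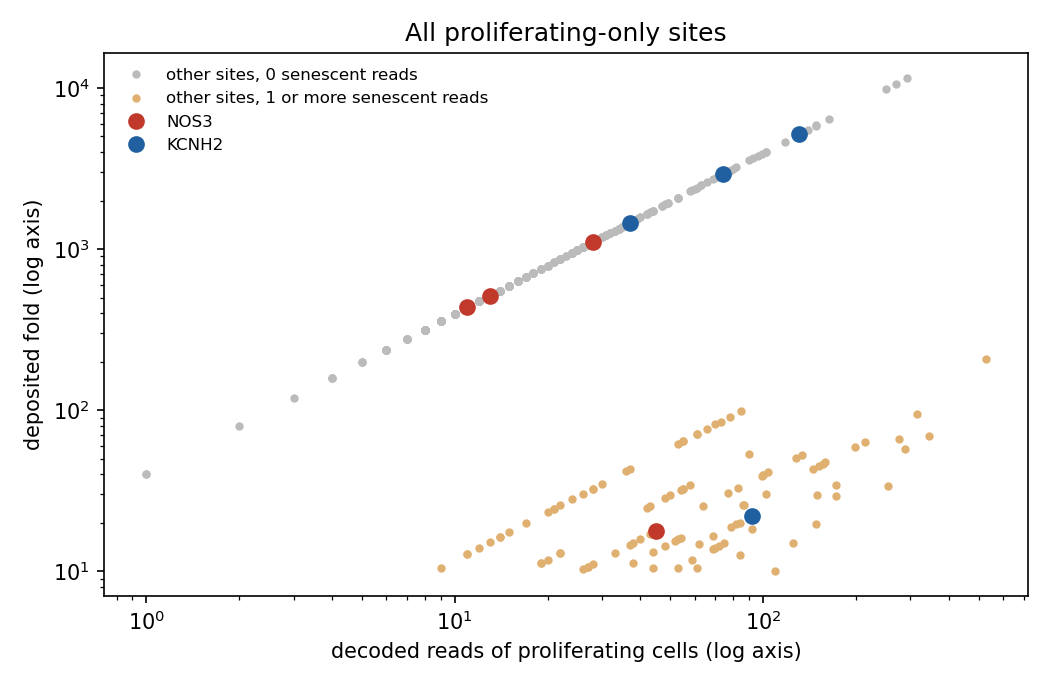
Deposited fold against decoded reads of proliferating cells for all 400 proliferating-only sites, both on log axes, with NOS3 in red and KCNH2 in blue. Sites with 0 senescent reads form a line because fold follows reads there; KCNH2 site 4 and NOS3 site 1 lie with the 108 sites that have senescent reads.

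The genes differed in how their sites sat against annotated transcript starts. All 4 NOS3 sites lay within 100 bases of the start of a shorter NOS3 transcript, a distance chosen after the positions were seen. NOS3 site 1 lay 52 bases upstream of the start of NOS3-206, and NOS3 site 2 lay 43 bases downstream of that of NOS3-207, a coding transcript beginning in exon 18. NOS3 site 3 was 45 bases and NOS3 site 4 86 bases downstream of the start of NOS3-209, next to which NOS3-205 begins. NOS3-205, NOS3-206 and NOS3-209 are annotated without a defined coding sequence. Coding bases of NOS3-201 made up 125 bases of NOS3 site 2, 56 of site 3 and 97 of site 4. Site 1 held none (0).

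Of the 400 proliferating-only sites, 5.75% (3.86 to 8.48) lay within 100 bases of an annotated transcript start and 16.8% (13.4 to 20.7) within 1 kb, counts to which NOS3 gave 4 sites each. None of the KCNH2 sites (0) did. They lay in the intron upstream of KCNH2-208, a transcript with a retained intron that starts at 150657964, at distances of 1166, 1338, 1857 and 2205 bases. With a limit of 2 kb in place of 1 kb, 7 of the 8 members would count as near a start. Intronic sites made up 72% of the list (67.4 to 76.2) and 4 of the 8 members. RefSeq promoter windows, each found at 1 place on GRCh37 chromosome 7 by its exact sequence (5 for KCNH2 and 2 for NOS3), put the nearest RefSeq start 1986 bases from a KCNH2 site and 15018 bases from a NOS3 site.

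In KCNH2 the sites sat at 45.7% to 48.8% of gene length from the 5′ end, just before the middle of the gene. In NOS3 they sat at 75.5% to 83.2%, among exons that encode the reductase part of the enzyme. No site of either list fell in the 3 nearest coding genes below KCNH2 (AOC1, TMEM176A and TMEM176B; 0 sites each) or above NOS3 (ATG9B, ABCB8 and ASIC3; 0 sites each). ATG9B, an autophagy gene read from the opposite strand, overlaps the end of NOS3, and its span began 1516 bases past the last NOS3 site. The nearest other proliferating-only site of chromosome 7 lay 7.57 Mb away in EPHA1, an ephrin receptor (fold 85.0). The nearest senescent-only site lay 0.555 Mb away in PRKAG2, a subunit of AMP-activated kinase (fold 428).

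Few genes held as many sites as these. Of the 220 coding genes with a proliferating-only site, 128 held 1, 54 held 2, 21 held 3 and 17 held 4 or more. The 17 had a median length of 116 kb, and all 220 had one of 127 kb. NOS3 (23.6 kb) was the second shortest and KCNH2 (33.4 kb) the fourth shortest (ranks 2 and 4). Per 10 kb of gene, NOS3 held 1.70 sites and KCNH2 1.20, ranks 3 and 4 of the 17; PCSK7, a proprotein convertase gene of 28.2 kb, held 1.77. Every member had another proliferating-only site within 1 kb (8 of 8), as did 55.2% of the list (50.4 to 60.0). Joined within 500 bases, the 4 KCNH2 sites were 1 region and the 4 NOS3 sites 2 regions.

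Adjacent coding genes that each held at least 2 sites of the same list were counted. There were 2 such pairs among proliferating-only sites, KCNH2 with NOS3 and SETBP1 with SLC14A2 on chromosome 18, whose genes stood 144 kb apart. The senescent-only list held 3, COL8A1 with CMSS1, NTM with OPCML and KCNMA1 with DLG5. KCNH2 and NOS3 were the closest of the 5 pairs, at 12.7 kb against 18.6 kb for COL8A1 and CMSS1. This count was added after the data were seen. KCNH2 and NOS3 were chosen as neighbours with their sites known, so their place among the pairs is a description. Whether the number of pairs is unusual was not tested.

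Among 614 other coding genes with a site, those most alike were ranked by their number of sites in each list and the log10 of their highest fold (3 values). MFSD6 came closest to NOS3, with 4 proliferating-only sites and a highest fold of 946, then SH3BGRL (4 sites, 1655), SYN1 (4 sites, 631) and SETBP1 (4 sites, 3780). The genes most alike KCNH2 included SETBP1, SH3BGRL, NOS3 and MFSD6, in this order. None of the genes named here had a senescent-only site (0). SYN1 encodes a synaptic vesicle phosphoprotein and SETBP1 a nuclear protein that binds SET.

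The members lay in GC-rich DNA. GC content of the central 200 bases was 67.5%, 64.5%, 51% and 68.5% at KCNH2 sites 1 to 4. It was 69%, 70.5%, 63% and 66.5% at NOS3 sites 1 to 4. All 8 lay above the list's median of 47.2%, and all but KCNH2 site 3 above its upper quartile of 57%. The genes as a whole were GC-rich too, at 59.6% for KCNH2 and 57.6% for NOS3. Set against its own gene, GC was 4.93 to 8.93 points higher at KCNH2 sites 1, 2 and 4 and differed by -8.57 points at KCNH2 site 3. The NOS3 sites were 5.41 to 12.9 points above their gene. Over the 347 proliferating-only sites inside exactly 1 coding gene the median difference was 3.51 points (interquartile range -0.70 to 8.98), and 70.9% lay above their gene.

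CpG dinucleotides separated the sites of the genes more than GC did. The observed-to-expected ratio, which is low where methylated CpG has decayed and high in CpG islands, was 0.504, 0.523, 0.463 and 0.407 at NOS3 sites 1 to 4. It was 0.136, 0.144, 0.256 and 0.319 at KCNH2 sites 1 to 4. All NOS3 values lay above all KCNH2 values, and the list's median was 0.247. Over the whole genes the order was the reverse, 0.342 for KCNH2 and 0.306 for NOS3. The sites also differed in place, since NOS3 sites 2 to 4 held coding bases and NOS3 site 1 and the KCNH2 sites held none. NOS3 sites 3 and 4 shared 109 bases, so their ratios are not separate values. The source of the difference was not tested. The RefSeq promoter window at the 5′ end of KCNH2 had a GC content of 78.3% and a CpG ratio of 0.883, above every one of its sites. The KCNH2 window nearest to the sites had 39.3% and 0.493. The NOS3 windows had GC contents of 65.3% and 66.7% and CpG ratios of 0.345 and 0.361, and these ratios were below those of all 4 NOS3 sites.

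**Figure D5:**
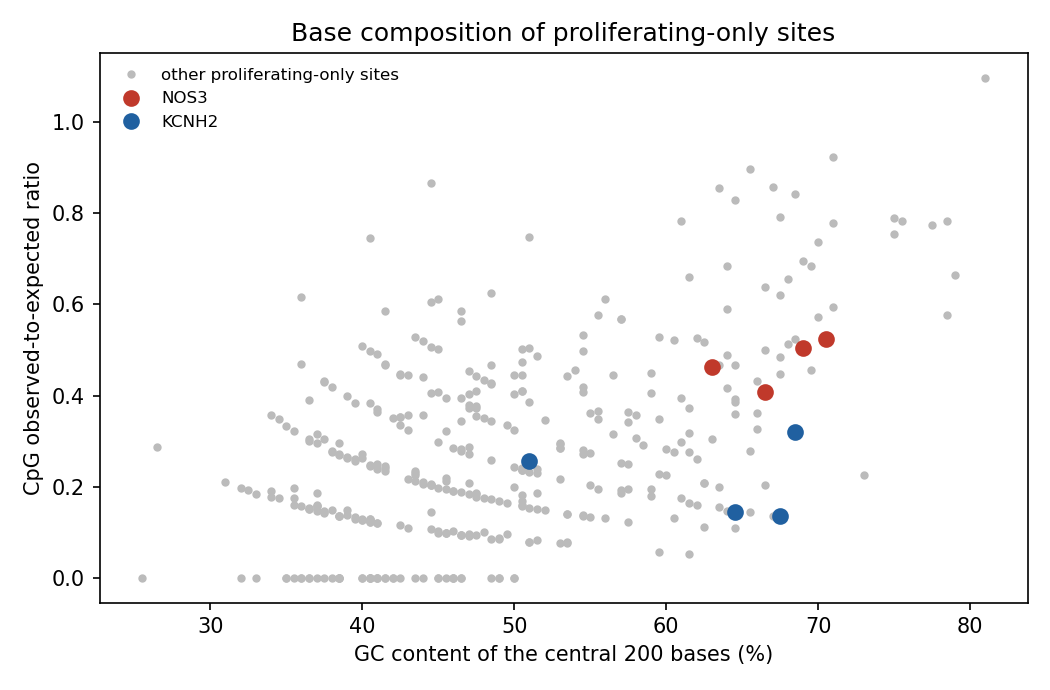
CpG observed-to-expected ratio against GC content (percent) in the central 200 bases of the 400 proliferating-only sites, with NOS3 in red and KCNH2 in blue. The members lie to the GC-rich side, and the 4 NOS3 sites stand above the 4 KCNH2 sites in CpG ratio.

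Short motifs were searched on both strands of the same 200 bases; a match is a run of letters and not evidence of a bound factor. Of 8 motifs on the original list, 2 had a match in a member. The GC box (GGGCGG), the recognition sequence of the SP family, was present at KCNH2 sites 1 and 3 and NOS3 sites 1 and 2, 4 of 8, where 13.5% of the list had it (10.5 to 17.2) and 3.30% of senescent-only sites. The RUNX motif (TGTGGT) was present at KCNH2 sites 1 and 2, 2 of 8 against 14.8% of the list (11.6 to 18.6) and 19% of senescent-only sites. The printed NOS3 site 1 shows its GC box in reverse, 40 bases past the midpoint. The members' median GC content was 67%, against 47.2% over the list. No motif share given here or below is matched for base composition.

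No member (0 of 8) held the AP-1 motif (TGACTCA or its reverse complement TGAGTCA, 10% of the list), the TATA box (TATAAA or TATATA, 14%), the ETS motif (CCGGAA, 3%), the E-box (CACGTG, 2.75%), the TEAD motif (GGAATG, 18.8%) or the cyclic AMP response element (TGACGTCA, 0.5%). Among senescent-only sites these shares were 18.4%, 14.7%, 2.94%, 3.53%, 17.8% and 0.707%, in the same order. A CArG box, the recognition sequence of serum response factor, and the CCAAT box (CCAAT) were added after the sequences were seen. KCNH2 site 2, the member with the most reads, held the CArG box CCTAATATGG, 29 bases before its midpoint and in capitals in its sequence. It was the only member with this motif (1 of 8), which 6.5% of the list (4.47 to 9.35) and 0.589% of senescent-only sites held. CCAAT lay at NOS3 sites 1 and 3 (2 of 8, against 19.2% of the list and 23.9% of senescent-only sites).

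The pathways around both genes were looked at through lists of 37 nitric oxide genes and 52 genes of voltage-gated potassium channels and their subunits, all found in the annotation. Of the nitric oxide genes, 2 held proliferating-only sites (5.41%) and 2 senescent-only sites (5.41%), where 1.09% and 2.04% of all 20176 coding genes did. The proliferating-only hosts were NOS3 itself and GUCY1B1, the beta subunit of the guanylate cyclase that senses nitric oxide, with 1 exonic site (59 reads against 0, fold 2324). The senescent-only hosts were DDAH1, which breaks down an inhibitor of nitric oxide synthases, with 4 sites (folds of 10.6, 329, 428 and 657 on 13, 10, 13 and 20 reads of senescent cells), and CAV1, the caveolin that binds NOS3 and restrains it, with 1 intronic site (23 reads against 0, fold 756). No other gene of the list held a site, NOS1 and NOS2 among them.

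Among the potassium channel genes of the list, KCNH2 alone held proliferating-only sites (1 of 52, 1.92%). KCNAB1 alone held senescent-only sites (1 of 52, 1.92%). KCNMA1, a potassium channel gene named above, was not on the list and held 2 senescent-only sites, so these counts depend on the list. KCNAB1, a beta subunit of Kv1 channels, had 4 intronic sites with folds of 395, 2987, 16.2 and 30.2. Its sites of lowest fold had the most reads of their own state in that gene, 156 and 218 against 8 and 6 of the other. These sites overlap, so they may hold some of the same reads. No other KCNH family member held a site. NOS3 and KCNH2 were placed on these lists knowing their sites, and longer genes can hold more sites. The median length was 43.6 kb for the nitric oxide genes and 54.3 kb for the channel genes, against 27.2 kb for all coding genes, so the shares are a description.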

How the data were processed

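The series holds 8 libraries of IMR90 cells; the files analysed here are 2 distinct lists of start sites, deposited in 4 files that are identical in pairs. Each site carries the authors' deposited fold, a ratio between the states, whose direction is read from the list's name. The tools named in the submitters' processing notes are HOMER, bedtools 2.27.1-65, cutadapt 2.10, SAMtools 1.1 and BWA 0.7.10, without their roles, and hg19 is among the builds named there. The site caller, the cutoffs and whether replicates were pooled are not given in the sources used here, and neither is the depth of a library. A higher pseudocount or other scaling would change every fold without a read in the other state.

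The value of a read was fitted to the folds, and reads were decoded within 1e-06 of a read, a script tested on simulated data. Sites were compared with GRCh37, whose coordinates on these chromosomes are those of hg19 (0 sites past a chromosome end), and GENCODE 44 lifted to it. Classes follow the midpoint, in the order start within 1 kb, exon, intron. Promoter windows (250 bases before to 50 after a start) are from RefSeq, GRCh38.p14, found in GRCh37 by exact match. Python 3.11.15, NumPy 2.4.6, SciPy 1.17.1 and pysam 0.24.0 were used. No test was run: members share a locus and were chosen with their values known. Members, gene lists and motifs were chosen with earlier results of these data known. Named are the members, genes overlapping or next to them, pathway genes with a site, and the 5 genes most alike, of which some are not reported here.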

Additional observations from a re-analysis of the deposited data

How the results depend on the processing

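No paired analysis was possible because a site carries a single value and none per library, so that no replicate could be left out either. Of 56 values under another setting, 41 stayed within their limits and 15 moved. The count of 4 sites in each gene was the same with no upstream window, with 5 kb upstream, with protein-coding transcripts only and with any overlap. Joining within 500 bases left 2 NOS3 regions and 1 KCNH2 region, and joining within 10 kb left 1 each. The median fold of the 8 sites was 808. With reads added to each state before scaling for depth, it became 50.4 for 0.5 read and 9 for 5 reads. Over the sites with no senescent read it was 1280. With starts counted within 2 kb, 7 members were near a start and 1 intronic; with protein-coding transcripts only, 2 were near a start, 1 was exonic and 5 were intronic. In 150 bases the RUNX motif was found at 1 member and CCAAT at 1; in 400 bases the CArG box was found at 2. Taking 1 site per region joined within 500 bases, 79.3% of the list had no senescent read. Few reads limit the NOS3 sites most, where 11 and 13 reads gave lower bounds of 2.20 and 2.77.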

Other observations

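The CArG box of KCNH2 site 2 led to a look at the same motif over both lists, after the sequences were seen and without a test. It lay in the central 200 bases of 26 of 400 proliferating-only sites (6.5%) and 5 of 849 senescent-only sites (0.589%). Counted by regions joined within 500 bases, the shares were 19 of 276 (6.88%) and 5 of 635 (0.787%). Other coding genes holding such a proliferating-only site were PCSK7 (4 sites), TENM4 (3), BCL9, PLS3, PPP1R12B and SH3BGRL (2 each), and ITCH, JRK, KLHL29, MAML1, NRP2, PALLD, RARRES1 and SYT1 (1 each), and 2 sites lay in no coding gene. The highest folds per gene ran from 15.5 in MAML1 to 9883 in PLS3. The senescent-only sites lay in CMKLR1, LOXL2, LRRC8D, MTMR3 and PALM2AKAP2 (1 each). No theme among these genes was tested.

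The GC box found at 4 members was also unequally spread, at 54 of 400 proliferating-only sites (13.5%) and 28 of 849 senescent-only sites (3.30%), or 44 of 276 regions (15.9%) and 28 of 635 regions (4.41%). Median GC content was 47.2% and 45.5%, but medians do not show how many GC-rich sites each list held. The upper quartile of the proliferating-only list was 57%. The part of base composition in this was not tested.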
